A study of Mus musculus with 8 samples.

Results

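The Nlrp genes expressed in the mouse oocyte are here a set of 10 genes, Nlrp2, Nlrp4a, Nlrp4b, Nlrp4c, Nlrp4e, Nlrp4f, Nlrp5, Nlrp9a, Nlrp9b and Nlrp14, taken by their symbols and not by any measured value. They are 10 of 29551 genes that had at least 1 count and of 10673 genes that could be tested, and all 10 could be tested. By the annotation 9 of them are on chromosome 7 and 1, Nlrp4f, is on chromosome 13. NLRP proteins join a pyrin domain, a NACHT domain that binds nucleotides through its P-loop, and leucine-rich repeats. Some NLRP proteins build inflammasomes in immune cells, whereas mouse oocytes store transcripts of a separate group of them. The best known product of that group is NLRP5, also called MATER, a maternal-effect protein of the subcortical maternal complex beneath the oocyte membrane.

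RNA was measured in germinal vesicle (GV) oocytes, fully grown oocytes that are still arrested in meiotic prophase. Conditional knockout oocytes came from Kiaa1429F/F;Zp3-Cre females, called Kiaa1429Zp3cKO and here cKO, and the control oocytes from Kiaa1429F/+;Zp3-Cre females, with 4 libraries of about 20 oocytes in each group. Both groups were C57BL/6, carried Zp3-Cre and at least 1 floxed Kiaa1429 allele, and were primed with the gonadotropin PMSG (5 IU). At 48 hours, oocytes measuring 70 µm or more were isolated; the labels give the females' age as 20 days in one field and 3 weeks in another. The Zp3 promoter drives Cre in growing oocytes, so controls are heterozygous deleted oocytes and not wild type. The product of Kiaa1429 (official symbol Virma) is a scaffold of the m6A methyltransferase, the enzyme complex that methylates adenosines in RNA, and this mark is often found on long internal exons and near stop codons. The labels do not tie libraries to animals, so every p-value here measures the spread between libraries, which may be technical.

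Virma was measured at 18.5, 24.0, 17.7 and 16.9 CPM (counts scaled to a common library size, with TMM factors) in cKO libraries, against 60.5, 71.0, 56.6 and 81.4 CPM in control libraries. Its cKO mean was 28.6% of the control mean, and it fell by 1.81 ± 0.18 on the log2 scale (standard error, SE), with an adjusted p of 1.02e-06 (edgeR quasi-likelihood test, Benjamini-Hochberg over all genes). Exon counts per library were 4399190 to 5064008 in cKO and 4247471 to 4790038 in control. Reads outside every exon ID were 5.01% to 6.19% of reads in cKO and 9.86% to 12.0% in control, and reads ambiguous between exon IDs were 78.8% to 80.4% in cKO and 72.9% to 75.4% in control. All 8 oocyte markers checked were tested; their summed level was 19820 ± 1664 CPM in cKO and 36230 ± 5390 CPM in control (SD, n = 4 each), with Gdf9, Bmp15 and Zp1 lower and Dppa3 higher. Cumulus and granulosa markers summed to 391.5 to 667 CPM in cKO and 203 to 363 CPM in control, with 7 of 10 tested, 3 higher and 3 lower. Theca and stroma markers summed to 4.18 to 5.27 CPM in cKO and 5.50 to 6.79 CPM in control. Immune markers summed to 5.48 to 9.38 CPM in cKO, mostly C1qa, and to 0.238 to 1.54 CPM in control, with Ptprc, Adgre1 and Cd74 at 0 in every library. The part of these differences in the Nlrp results was not tested.

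Each gene carries 1 long coding exon of 1555 to 1603 bases that encodes the NACHT domain, and 95.2% of all counts on the 10 genes lay on these exons. This is a share of counts and not of reads, since most reads were ambiguous between exon IDs, as given above. The last exons of Nlrp14, for example, have only 0 and 9 bases that no other exon ID covers. The stretch that codes for the P-loop, also called the Walker A motif, is shown for all 10 genes because it shows how close the copies are and lies in the long exon, which carries most counts in every gene but Nlrp4a, where no read could be assigned to it. It was read from GENCODE M21 transcripts (GRCm38), 5′ to 3′, with the codons of the motif in capitals.
Nlrp2: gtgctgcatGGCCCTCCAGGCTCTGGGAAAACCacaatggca
Nlrp4a: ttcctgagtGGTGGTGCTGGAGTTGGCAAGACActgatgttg
Nlrp4b: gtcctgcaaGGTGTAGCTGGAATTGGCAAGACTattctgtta
Nlrp4c: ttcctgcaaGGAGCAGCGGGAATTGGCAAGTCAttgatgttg
Nlrp4e: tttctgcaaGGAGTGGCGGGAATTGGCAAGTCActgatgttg
Nlrp4f: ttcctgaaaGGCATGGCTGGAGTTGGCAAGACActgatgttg
Nlrp5: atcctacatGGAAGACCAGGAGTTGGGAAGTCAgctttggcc
Nlrp9a: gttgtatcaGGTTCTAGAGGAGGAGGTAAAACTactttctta
Nlrp9b: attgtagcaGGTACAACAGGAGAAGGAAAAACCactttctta
Nlrp14: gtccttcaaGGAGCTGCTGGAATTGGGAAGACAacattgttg
The stretch of Nlrp5 is at chr7:23417432-23417473, that of Nlrp14 at chr7:107181847-107181888, that of Nlrp4c at chr7:6065552-6065593 and that of Nlrp4e at chr7:23320540-23320581, all on the plus strand. Over these 42 bases the 45 pairs of genes differed at 4 to 25 positions, with Nlrp4c and Nlrp4e the closest pair at 4. Over the whole long exon the 10 pairs of Nlrp4 genes were 77.8% to 93.8% identical, Nlrp9a and Nlrp9b were 80.9% identical, and the other 34 pairs were 51.2% to 53.9% identical.

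Of the 10 genes, 7 were lower and 1 was higher in cKO, and 2 did not pass the test. Over all genes tested 27.9% were lower and 27.0% were higher at the same threshold of 0.05. The groups did not overlap for 7 of the 10 genes, against 50.1% of all genes. The median log2 fold change of the 10 genes was -0.76, against 0.02 over all genes, and 9 of the 10 values were below 0. In pooled oocytes, less of an RNA in every cell and fewer cells that hold it cannot be told apart, and CPM gives shares of a library and not amounts per oocyte. Control library 3 was the highest control library for 9 of the 10 genes and control library 2 the lowest for 8, while cKO library 3 was the lowest cKO library for 5.

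**Figure D1:**
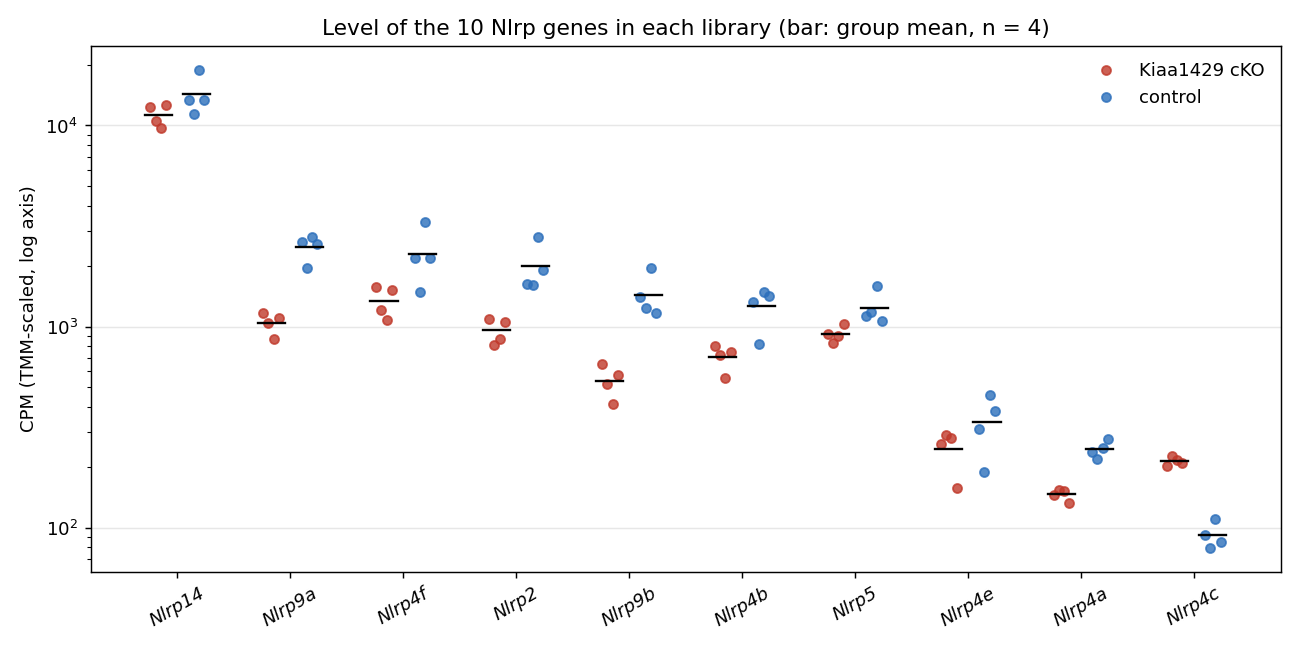
Level of each Nlrp gene in CPM (TMM-scaled, log axis) in every library, with cKO libraries in red on the left and control libraries in blue on the right of each pair; black bars are means of 4 libraries. All 4 cKO libraries lie above all 4 control libraries for Nlrp4c, and below them for Nlrp2, Nlrp4a, Nlrp4b, Nlrp5, Nlrp9a and Nlrp9b.

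**Figure D2:**
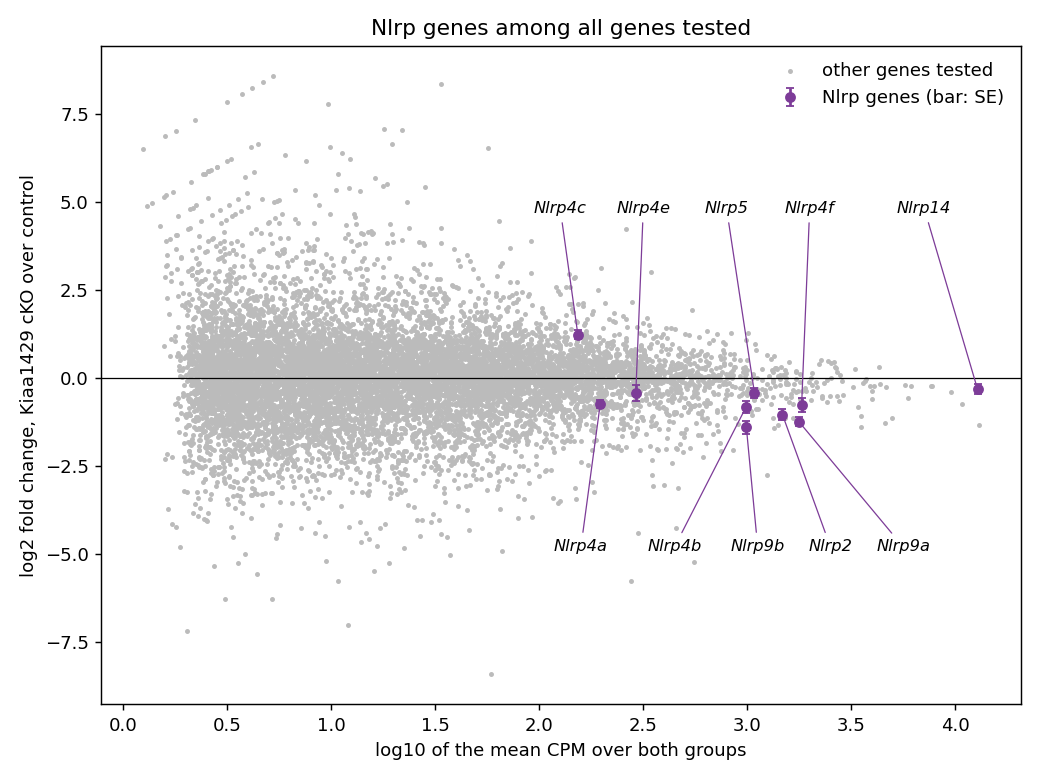
Log2 fold change, cKO over control, against the log10 mean CPM over both groups, for all 10673 genes tested (grey) and the 10 Nlrp genes (purple, bars are SE). The Nlrp genes lie toward the abundant end of the transcriptome, 9 of them below 0 and Nlrp4c above 0.

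Nlrp5, on the plus strand of chromosome 7 from 23385889 to 23441922, encodes the founding member of the subcortical maternal complex. It had 921, 827, 900 and 1035 CPM in cKO libraries, against 1132, 1180.2, 1598 and 1063 CPM in control libraries. Every cKO library was below every control library, although the nearest pair was close. Nlrp5 fell by 0.43 ± 0.14 on the log2 scale, with an adjusted p of 0.0163 in the edgeR test. This call was lost without cKO library 2 (log2 fold change -0.37, edgeR adjusted p = 0.0655), with no scaling factors (-0.27, edgeR adjusted p = 0.0848) and with last exons left out of the sums (-0.11, edgeR adjusted p = 0.547).

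Nlrp2, on the minus strand of chromosome 7 from 5298547 to 5351035, is a maternal-effect gene whose loss lowers fertility in female mice. It had 1095, 814, 871 and 1056 CPM in cKO libraries, against 1631, 1615, 2800.4 and 1919 CPM in control libraries. The groups did not overlap, and the control range was the wider. The cKO mean was 48.1% of the control mean, and Nlrp2 fell by 1.05 ± 0.17 on the log2 scale, with an adjusted p of 0.000115 in the edgeR test. Nlrp4f, on the minus strand of chromosome 13 from 65177111 to 65205977, encodes a partner of the subcortical maternal complex in mouse oocytes. It had 1575, 1216, 1083 and 1523 CPM in cKO libraries, against 2186, 1485, 3329 and 2203 CPM in control libraries. Control library 2 lay within the cKO range, so the groups overlapped. Nlrp4f fell by 0.77 ± 0.20 on the log2 scale, with an adjusted p of 0.00434 in the edgeR test.

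Nlrp14, on the plus strand of chromosome 7 from 107166990 to 107198102, is needed in mouse oocytes for development after fertilisation and was the most abundant of the 10. It had 12348, 10568, 9706 and 12686 CPM in cKO libraries, against 13343, 11397, 18901 and 13423 CPM in control libraries. The groups overlapped at control library 2. Nlrp14 alone held 1.20% of all counts in cKO and 1.34% in control. Its log2 fold change was -0.33 ± 0.15 with an adjusted p of 0.0747 in the edgeR test, which did not pass. Without control library 2 it was -0.44 with an edgeR adjusted p of 0.0194, and with no filter on low counts -0.32 with an edgeR adjusted p of 0.0487.

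Nlrp9a, on the plus strand of chromosome 7 from 26535023 to 26575615, had 1170.2, 1037, 866 and 1109.7 CPM in cKO libraries, against 2630.1, 1948, 2804 and 2585 CPM in control libraries. The highest cKO library was below the lowest control library by more than either group's SD, 132 CPM in cKO and 374 CPM in control. Nlrp9a fell by 1.25 ± 0.14 on the log2 scale, with an adjusted p of 3.12e-06 in the edgeR test. Nlrp9b, on the plus strand of chromosome 7 from 19991465 to 20073306, is known in the mouse intestine as a sensor of viral infection. It had 655, 517, 413 and 575 CPM in cKO libraries, against 1402, 1236, 1949 and 1168 CPM in control libraries. The groups did not overlap. The cKO mean was 37.5% of the control mean, and Nlrp9b fell by 1.41 ± 0.18 on the log2 scale, with an adjusted p of 9.02e-06 in the edgeR test.

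The Nlrp4 genes are mouse copies of the human gene NLRP4, and they did not move as one. Nlrp4b, on the plus strand of chromosome 7 from 10687789 to 10730168, had 800.2, 723, 553 and 752 CPM in cKO libraries, against 1325, 820.4, 1492 and 1420.2 CPM in control libraries. Its groups were separated by a narrow gap, and it fell by 0.84 ± 0.18 on the log2 scale, with an adjusted p of 0.000889 in the edgeR test. Nlrp4a, on the plus strand of chromosome 7 from 26435113 to 26476142, had 146, 154, 153 and 133 CPM in cKO libraries, against 237, 219.7, 248 and 278 CPM in control libraries. Its groups did not overlap, and it fell by 0.75 ± 0.12 on the log2 scale, with an adjusted p of 0.000134 in the edgeR test. With last exons left out its log2 fold change was -0.51 with an edgeR adjusted p of 0.0592. The long exon of Nlrp4a has 2 exon IDs with the same coordinates, so no read could be assigned to it, and most of the gene's counts came from its last exon.

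Nlrp4c, on the plus strand of chromosome 7 from 6045161 to 6105150, was the 1 gene of the 10 that was higher in cKO. It had 204, 227, 217 and 209 CPM in cKO libraries, against 92.7, 79.6, 111 and 85.1 CPM in control libraries. The 4 cKO libraries were all above the 4 control libraries and close to each other. The cKO mean was 233% of the control mean, and Nlrp4c rose by 1.22 ± 0.13 on the log2 scale, with an adjusted p of 2.78e-06 in the edgeR test.

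Nlrp4e, on the plus strand of chromosome 7 from 23301192 to 23362277, is the closest copy of Nlrp4c, with a long exon 93.8% identical to it. It had 260.1, 289.9, 279.6 and 158 CPM in cKO libraries, against 311, 189, 459 and 382 CPM in control libraries. The groups overlapped, and the log2 fold change of -0.44 ± 0.24 did not pass the edgeR test (adjusted p = 0.13). Without control library 2 it was -0.65 with an edgeR adjusted p of 0.0118, and with no filter on low counts -0.43 with an edgeR adjusted p of 0.0195. Of the 100-base windows of the long exon, 0.2% for Nlrp4c and 17.2% for Nlrp4e occur in another annotated transcript, for Nlrp4e those of 5 other genes, Gm16443 among them. For Nlrp9a and Nlrp9b, which share windows with each other, 2.0% and 3.0% do. Levels of Nlrp4e are therefore less certain than those of Nlrp4c.

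The log2 ratio of Nlrp4c to Nlrp4e within a library was -0.35, -0.35, -0.36 and 0.40 in cKO libraries, against -1.74, -1.24, -2.05 and -2.16 in control libraries. Every cKO ratio was above every control ratio. The difference of 1.64 had p = 0.0286 in a two-sided exact permutation test of 70 arrangements, which is the smallest p that 4 against 4 libraries can give, and it was 1.45 to 1.82 when any 1 library was left out. Each of those 8 exact permutation tests gave p = 0.0571, the smallest that 4 against 3 libraries can give and above 0.05. The pair was chosen for its sequence identity.

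**Figure D3:**
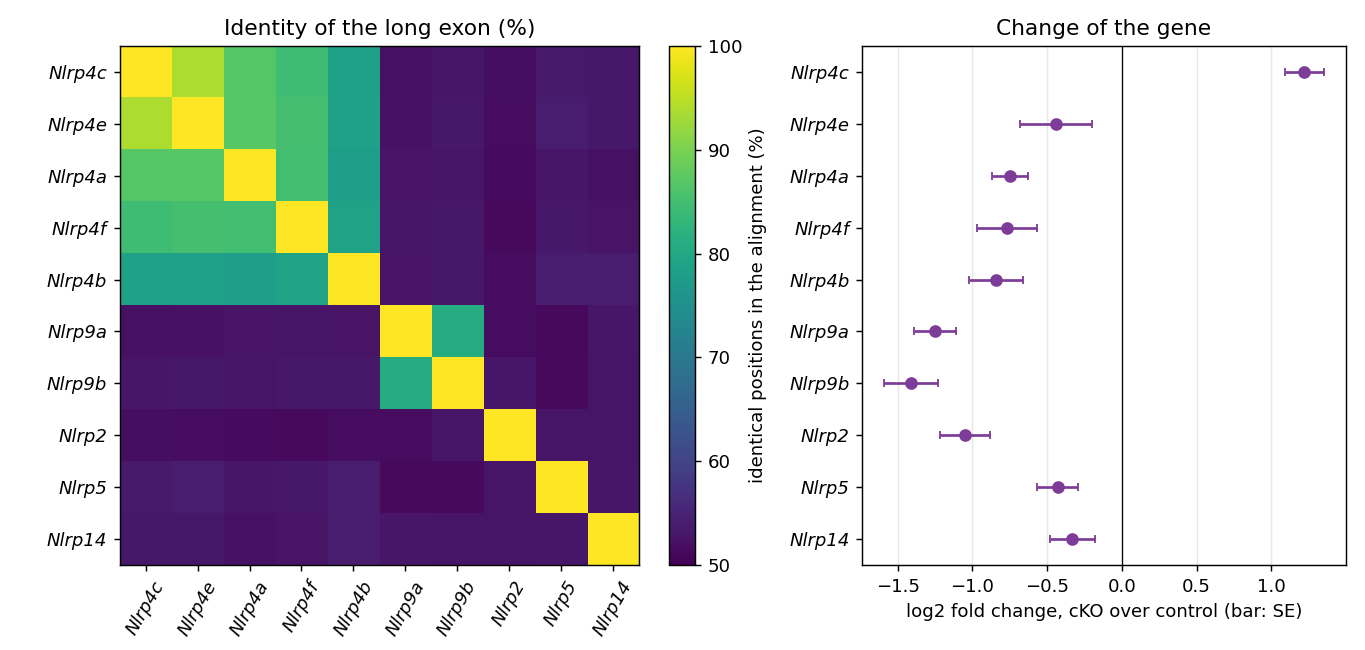
Left, identity of the long exon between each pair of Nlrp genes, as the percent of identical positions in the alignment; right, log2 fold change of each gene, cKO over control, with its SE. The Nlrp4 block, 77.8% to 93.8% identical, holds both Nlrp4c at 1.22 and 4 genes below 0, whereas Nlrp9a and Nlrp9b, 80.9% identical, lie at -1.25 and -1.41.

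The 10 genes summed to 19174, 16372, 15041 and 19239 CPM in cKO libraries, against 24290, 20170, 33691 and 24526 CPM in control libraries. The lowest control library was above the highest cKO library, and the cKO mean was 68.0% of the control mean. Within that sum Nlrp14 made up 64.4% to 65.9% in cKO libraries and 54.7% to 56.5% in control libraries. Without Nlrp14 the other genes summed to 6129 ± 683 CPM in cKO and 11403 ± 2496 CPM in control (SD, n = 4 each).

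Levels of different genes can be set beside each other only per length, here as CPM per kilobase of countable bases of the long exon. The countable part is not the same share of the long exon in every gene. In at least Nlrp4b, Nlrp4f, Nlrp5 and Nlrp9b another exon ID overlaps the long exon. Reads that cross the edge of the countable part may be lost as ambiguous. The values of these genes may therefore be too low, and their place in the order is less certain. On that scale Nlrp14 stood first, at 7142 ± 924 in cKO and 8831 ± 2018 in control, with ranges clear of every other gene. In cKO the order then ran from Nlrp5 (1229 ± 80.2) and Nlrp4f (1096 ± 198) through Nlrp4b (744 ± 114), Nlrp9a (664 ± 86.3), Nlrp2 (538 ± 85.4) and Nlrp9b (439 ± 86.6) to Nlrp4c (141 ± 7.24) and Nlrp4e (132 ± 30.9). In control it ran from Nlrp4f (1832 ± 610), Nlrp9a (1550 ± 221), Nlrp5 (1462 ± 326), Nlrp4b (1322 ± 307), Nlrp2 (1177 ± 337) and Nlrp9b (1148 ± 310) to Nlrp4e (178 ± 61.5) and Nlrp4c (61.9 ± 11.2). In cKO the ranges of Nlrp4f and Nlrp4b, and of Nlrp9b and Nlrp4c, did not overlap, whereas the other neighbours below Nlrp14 did. In control each neighbour from Nlrp4f down to Nlrp9b overlapped the next, and Nlrp9b, Nlrp4e and Nlrp4c were apart. Nlrp4e and Nlrp4c thus stood in the opposite order in the 2 groups, with overlapping ranges in cKO.

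The files also count each exon on its own. The 10 genes have 192 exon IDs, of which 96 held at least 1 count and 41 could be tested, and 17 of these were lower and 4 higher in cKO. Over all 14052 exons tested, 27.3% were lower and 26.2% were higher. Of the 9 long exons tested, 5 were lower and 1, that of Nlrp4c, was higher. In 7 genes exon usage did not pass the test, so the exons were not shown to move unequally. All 4 tested exons of Nlrp9b were lower, from -0.99 to -1.50 on the log2 scale, and all 3 of Nlrp4c were higher, from 1.19 to 1.56. The Nlrp9b exon at -0.99 lost its call without control library 1, cKO library 2 or cKO library 3, with DESeq2 (adjusted p = 0.0593) and with no filter on low counts (edgeR adjusted p = 0.103). The 9 tested exons of Nlrp14 lay between -0.38 and 0.07, and none passed. Exon usage was called for 3 of the 10 genes, Nlrp2, Nlrp4a and Nlrp5, against 23.7% of 2847 genes (edgeR diffSpliceDGE, Simes test).

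In Nlrp2 (edgeR adjusted p = 1.15e-10 for usage) the 60-base coding exon 4 of 12, at chr7:5332960-5333019 on the minus strand, moved against the long exon and exon 11. It is shown whole because it rose while the long exon beside it fell. It holds no GGACT, a frequent form of the m6A consensus. That is not particular to exon 4, since of the exons of Nlrp2 only the long exon holds GGACT.
Nlrp2 exon 4: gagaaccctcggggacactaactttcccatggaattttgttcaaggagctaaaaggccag
The exon had 16.7, 19.0, 11.3 and 16.0 CPM in cKO libraries, against 2.16, 2.40, 1.82 and 3.89 CPM in control libraries. The groups did not overlap, and it rose by 2.61 ± 0.28 on the log2 scale, with an adjusted p of 2.2e-06 in the edgeR exon test. It rests on 302 counts over the cKO libraries and 43 over the control libraries, and made up 1.62% and 0.132% of the gene's counts. At 60 bases it is shorter than the 150-base reads, so a read counted on it alone also holds bases outside the annotated exons or was trimmed. The same holds for exon 1, of 33 bases, and exon 11, of 171 bases, is little longer than a read. The long exon 5, at chr7:5327408-5329010, fell by 1.13 ± 0.18 on the log2 scale (edgeR exon test, adjusted p = 7.57e-05). Exon 2, which holds the start of the coding sequence, had 84.2 ± 7.91 CPM in cKO and 70.3 ± 14.3 CPM in control (SD, n = 4 each) and did not pass the exon test (log2 fold change 0.26); it passed as higher without control library 3 (0.38, edgeR adjusted p = 0.0377) and with no scaling factors (0.40, edgeR adjusted p = 0.0391). It made up 8.68% of the gene's counts in cKO and 3.57% in control, a usage change of 1.29 on the log2 scale. Exon 1, of 33 bases and too low to be tested, had 2.22, 0.854, 1.07 and 1.13 CPM in cKO libraries, against 0.216, 0.480, 0.260 and 0.729 CPM in control libraries, without overlap. Exon 11 fell by 2.06 ± 0.46 on the log2 scale, on 19 counts in cKO and 70 in control (edgeR exon test, adjusted p = 0.00144).

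Nlrp4a (edgeR adjusted p = 5.7e-05 for usage) has an alternative last exon of 513 bases at chr7:26464094-26464606, which ends a shorter coding transcript. It had 2.22, 1.92, 2.56 and 1.13 CPM in cKO libraries, against 11.4, 12.7, 11.2 and 10.4 CPM in control libraries. The groups were far apart, on 37 counts in cKO and 192 in control, and the exon fell by 2.54 ± 0.27 on the log2 scale (edgeR exon test, adjusted p = 2.02e-06). The main last exon, at chr7:26475046-26476142, fell by 0.67 ± 0.13.

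In Nlrp5 (edgeR adjusted p = 0.0191 for usage) the exon that moved belongs to a transcript annotated as a retained intron, with no coding sequence, which overlaps the long exon and runs on into the intron after it (chr7:23417884-23420167). It had 177, 145, 164 and 242 CPM in cKO libraries, against 366, 270.3, 445 and 315 CPM in control libraries. The groups did not overlap, and it fell by 0.94 ± 0.18 on the log2 scale (edgeR exon test, adjusted p = 0.000423). The bases of the long coding exon that no other exon ID covers had 735 ± 47.9 CPM in cKO and 874 ± 195 CPM in control (SD, n = 4 each), and their log2 fold change of -0.25 ± 0.15 did not pass. The retained-intron exon made up 19.7% of the gene's counts in cKO and 28.4% in control. The usage call of Nlrp5 was lost without control library 1, cKO library 1 or cKO library 2, with edgeR adjusted p of 0.124, 0.0896 and 0.118. Reads outside every exon ID were also a smaller share in cKO, as given above, and their part in this result was not tested.

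**Figure D4:**
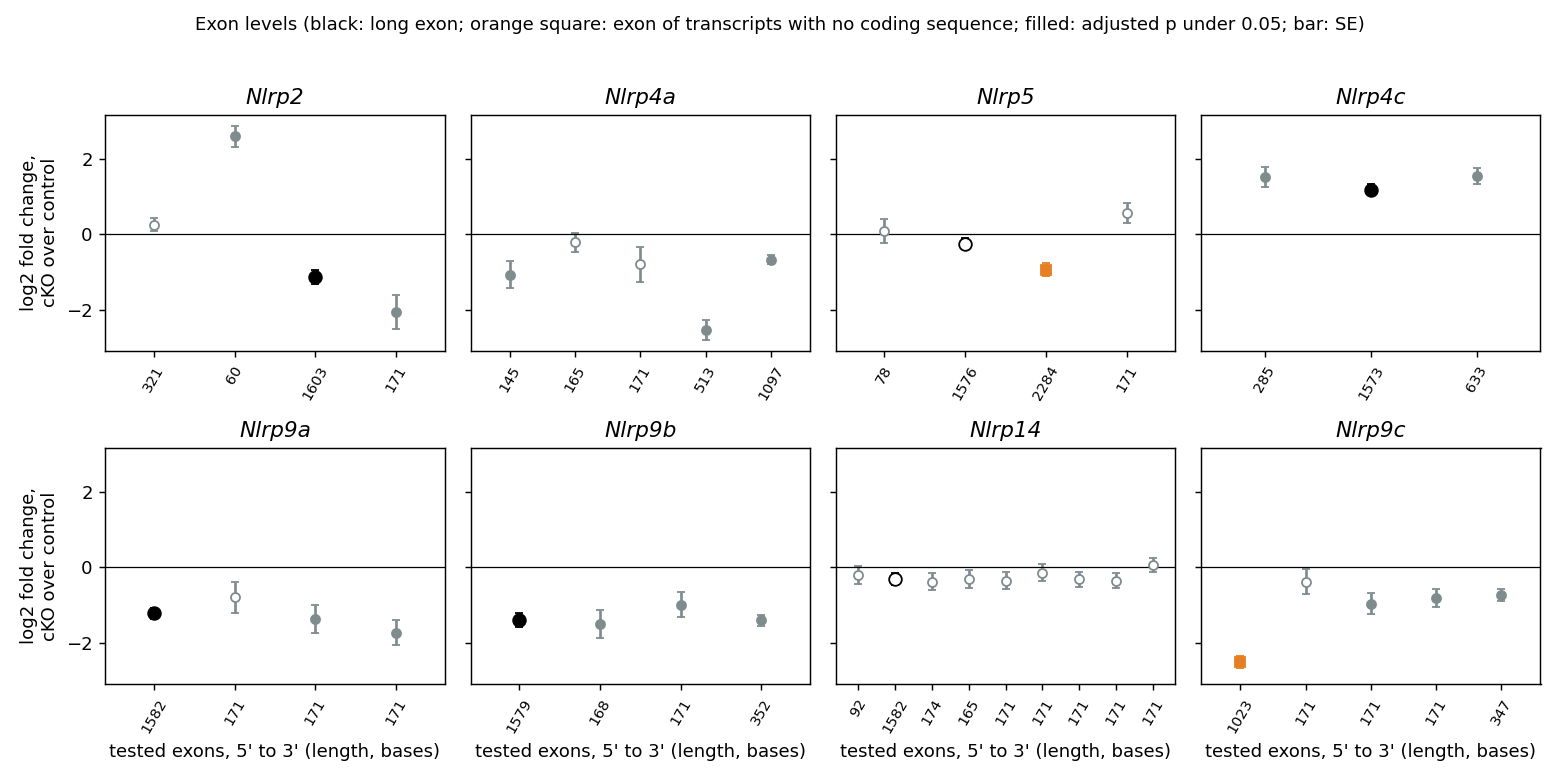
Log2 fold change of each tested exon, cKO over control, with its SE, for 7 of the 10 genes and for Nlrp9c; exons run 5′ to 3′ and are labelled by length in bases. The 60-base exon of Nlrp2 stands at 2.61 above a long exon at -1.13, the retained-intron exons of Nlrp5 and Nlrp9c stand at -0.94 and -2.52, and the exons of Nlrp9b, Nlrp14 and Nlrp4c each lie close together.

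The GGACT motif, searched on the transcribed strand, occurs 3 times in the long exons of Nlrp5 and Nlrp4a, 2 times in those of Nlrp4b, Nlrp4c and Nlrp4e, and 1 time in those of Nlrp2, Nlrp4f, Nlrp9a, Nlrp9b and Nlrp14. Among 198 internal exons of 1500 to 1700 bases in the annotation, 78.8% hold it, with a median of 2. A match describes the letters and not a methylated site, and its part in any level was not tested.

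Promoters were available for 9 of the 10 genes from RefSeq (GRCm38.p6), in 12 windows of 250 bases before a transcription start. The letters TAATTG and TAATTA, forms bound by the oocyte homeobox factor NOBOX, were searched on both strands. They occur in 3 of the 12 windows, that of Nlrp9a, that of Nlrp9b and 1 of Nlrp5, and in 11.3% of 32851 windows of all genes. The window of Nlrp9c, a relative outside the set, holds none of them. Binding was not measured, and the part of these letters in any level was not tested. The window of Nlrp9a ends at the annotated start of its gene, 26535023. That of Nlrp9b lies before a RefSeq start inside its gene, which the annotation starts at 19991465. The 2 windows thus differ in their place in the gene. They are shown with these letters in capitals, on the plus strand at chr7:26534773-26535022 and chr7:20007773-20008022.
Nlrp9a: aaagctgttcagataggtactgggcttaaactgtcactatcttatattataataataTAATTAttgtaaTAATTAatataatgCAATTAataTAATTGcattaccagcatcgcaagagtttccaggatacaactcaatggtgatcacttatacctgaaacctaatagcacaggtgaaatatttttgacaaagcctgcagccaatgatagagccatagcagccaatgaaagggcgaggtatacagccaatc
Nlrp9b: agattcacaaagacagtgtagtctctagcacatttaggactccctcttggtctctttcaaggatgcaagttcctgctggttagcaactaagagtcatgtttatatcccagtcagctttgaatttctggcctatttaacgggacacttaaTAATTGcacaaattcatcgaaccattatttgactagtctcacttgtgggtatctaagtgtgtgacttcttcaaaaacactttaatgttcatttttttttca
Aligned end to end, the windows of Nlrp9a and Nlrp9b were 47.8% identical and those of Nlrp4c and Nlrp4e 47.9% identical, well below the identity of their long exons. Less related pairs scored about the same, such as Nlrp2 and Nlrp4a at 48.0% and Nlrp5 and Nlrp9b at 48.2%. With 1 window per gene, the most alike were those of Nlrp9a and Nlrp9c, at 65.7%, and then those of Nlrp4b and Nlrp4c, at 59.0%. Nlrp4a, Nlrp4b and Nlrp5 have more than 1 window, and only the first listed was aligned. For Nlrp5 that window lies inside the gene. The windows left out were not compared, so the ranking holds only for those aligned. Nobox itself had 132 ± 12.3 CPM in cKO and 100.2 ± 25.3 CPM in control (SD, n = 4 each), a log2 fold change of 0.39 that did not pass the edgeR test (adjusted p = 0.0601) and that passed without control library 2 (0.55, edgeR adjusted p = 0.00603).

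Other genes of the NLR family were mostly not measurable: of 20 listed, 4 were tested, and 3 of these were lower. For this list and the lists that follow, the shares over all genes tested were 27.9% lower and 27.0% higher. Nlrp9c, which lies 31.4 kb before Nlrp4a, fell by 2.05 ± 0.16 on the log2 scale, to 333 ± 45.2 CPM in cKO against 1383 ± 274 CPM in control (SD, n = 4 each; edgeR adjusted p = 9.31e-08). Most of that difference lay on 1 exon of its non-coding transcripts, at chr7:26377150-26378172, with 198 ± 27.9 CPM in cKO and 1142 ± 213 CPM in control. Its coding last exon fell by 0.73 ± 0.15, and with last exons of any transcript left out the gene's log2 fold change was -0.50 with an edgeR adjusted p of 0.0772. Nlrp4g, a transcribed pseudogene on chromosome 9, fell by 1.31 ± 0.18, and Nlrc4, which encodes an inflammasome NLR of immune cells, fell to 33.7 ± 6.61 CPM in cKO against 116 ± 23.4 CPM in control. Nod2, a sensor of bacterial cell walls, had a log2 fold change of 0.65 that did not pass (edgeR adjusted p = 0.0896); it passed in 5 of the alternatives, among them without control library 2 (0.94) and without cKO library 1 (0.84).

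Of 10 inflammasome partners only Nek7, the kinase that binds NLRP3, could be tested. It fell to 1.81 ± 0.602 CPM in cKO against 17.6 ± 4.13 CPM in control, and the log2 fold change was -3.26 ± 0.28 (edgeR adjusted p = 2.91e-07). Pycard, the inflammasome adaptor, was too low to be tested, with 1.32, 4.43, 2.56 and 2.60 CPM in cKO libraries, 53 counts in all, against 0 in all 4 control libraries. Casp4, Il1b, Il18, Aim2 and Mefv were at 0 in every library, and a share up to the 3-count floor of 0.594 to 0.708 CPM would not have been seen. Reads ambiguous between exon IDs are not in these counts, so a higher level could also have been missed.

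Among 10 partners of the subcortical maternal complex and the oocyte lattices 8 were tested, 2 were lower and 0 higher by edgeR, with a median log2 fold change of -0.26. Npm2, a histone chaperone, fell by 0.50 ± 0.14 (edgeR adjusted p = 0.00752), a call lost with no scaling factors (-0.35) and with last exons left out (-0.45). Zbed3 was lower by 0.58 ± 0.23 (edgeR adjusted p = 0.0414), a call lost with no scaling factors and when any of control libraries 2 and 3 and cKO libraries 1 to 4 was left out (-0.68 to -0.41). With last exons left out its log2 fold change was 0.07. Ooep, which encodes a scaffold protein of the complex that binds NLRP5, had 881 ± 41.8 CPM in cKO and 1018 ± 98.9 CPM in control, and its log2 fold change of -0.21 did not pass. Uhrf1, an epigenetic regulator, had a log2 fold change of 0.23 that did not pass, and that passed with no scaling factors (0.39, edgeR adjusted p = 0.0191). Tle6 and Khdc3 had under 10 CPM in every library, which limits them: exons that overlap another exon ID are hardly counted, so a low count is not a low level.

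Of 10 listed oocyte transcription factors 7 were tested, 1 was higher and 1 lower. Sohlh2, a factor of young oocytes, had 172 ± 6.30 CPM in cKO and 11.7 ± 4.93 CPM in control, a rise of 3.88 ± 0.23 on the log2 scale (edgeR adjusted p = 1.07e-08). Bnc1, a zinc finger factor of the oocyte, fell by 1.10 ± 0.14 (edgeR adjusted p = 8e-06).

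The nearest tested genes on either side of the Nlrp genes were 20, of which 4 were themselves in the set. Of the other 16, 5 were lower and 3 higher, against 27.9% and 27.0% of all genes tested. Nlrp9c, itself a relative of the set, is among the 5, and distances to the nearest tested gene ran from 0.4 to 1015.2 kb. Ceacam20, a cell adhesion gene that ends 0.4 kb before Nlrp9b, had 138 ± 14.7 CPM in cKO and 278 ± 49.0 CPM in control and fell by 1.01 ± 0.15 on the log2 scale (edgeR adjusted p = 4.22e-05). Cyp2b23, 89.6 kb after Nlrp9a, rose by 0.66 ± 0.19 while Nlrp9a fell. The neighbours of the risen Nlrp4c, Gm5321 at 25.7 kb and Zfp787 at 26.3 kb, had log2 fold changes of -0.04 and 0.45 that did not pass.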

How the data were processed

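Counts per exon ID were deposited by the authors as whole numbers, 1 file per library. Per the labels' protocols, cDNA was primed with oligo-dT, extended by template switching, amplified and tagmented, and both ends were read for 150 bases, a design that does not mark strand. The submitters' processing notes name STAR, HTSeq and mm10, and their versions, options and annotation are not given in the sources used. Of reads, 14.6% to 15.6% were counted on an exon ID and the share ambiguous between exon IDs is given by group above; the 5 summary rows stayed out of library sizes and tests. Exon IDs were matched to GENCODE M21 without versions: 494230 of 496288 (99.6%) matched, and the rest, with 0.252% of counts, were left out. Counts were summed per gene, and 85.5% lay on exons that are last in some transcript. Genes and exons that passed filterByExpr (minimum count 10) received TMM factors and entered edgeR 4.0.16 in R 4.3.3 (two-sided quasi-likelihood test, a group term alone), with Benjamini-Hochberg adjustment over all rows and a threshold of 0.05. The SE is the size of the log2 fold change over the root of F. Exon usage was tested with diffSpliceDGE on exons kept in genes with at least 2. DESeq2 1.42.0 was an alternative.

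No 2 libraries of a group agreed within sampling noise (chi-square over degrees of freedom 5.11 to 23.7). A level of 0.594 to 0.708 CPM corresponds to 3 counts. The genes and lists were chosen with earlier results of these data known. The text names all 10 genes, Virma, up to 4 genes of smallest p per list, and some of the neighbours and listed markers; these neighbours and markers, Tle6, Khdc3, Pycard and the genes at 0 were picked after their values were seen. Sequences come from GENCODE M21 transcripts and the RefSeq promoter table; the promoter of Nlrp14 was not used here.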

Additional observations from a re-analysis of the deposited data

Results flagged for a closer look

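In 104 groups of 4 libraries, formed by each gene, each tested exon and the summed level in either genotype, 2 groups held 1 library far from the other libraries; Dixon's limit on the gap to the nearest library is passed by about 1 in 20 groups by chance. The 165-base coding exon of Nlrp14 at chr7:107186548-107186712 had 5.76 CPM in cKO library 3, against 8.66 to 9.18 CPM in the other cKO libraries. The first exon of Nlrp4e had 22.6 CPM in cKO library 4, against 43.8 to 47.6 CPM in the other cKO libraries, and the whole gene was also lowest in that library.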

How the results depend on the processing

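Each result was recomputed, where the setting applies, with RLE or no scaling factors, no filter on low counts, DESeq2, a replicate block, last exons left out of the gene sums and without each library in turn. Of the 10 genes 1 stayed called higher throughout, and the number called lower was 7 with the replicate block, 6 with no scaling, 9 with no filter, 5 with last exons left out and 6 to 9 without 1 library. The summed level in cKO was 63.5% to 75.9% of control without 1 library, and 76.2% without scaling factors. With last exons left out, where 4189 genes could be tested, 956 genes were called higher and 1022 lower, 2 neighbouring genes were called, and Zbed3 turned to a log2 fold change of 0.07; the fewer genes tested account for part of the drop in counts, and for Zbed3 the cause was not tested. With a minimum count of 3 instead of 10, 1040 genes were called for exon usage, against 674. Of the other values 1109 kept their side of the threshold, 28 came to pass, 34 ceased to pass and 1 reversed. A change of direction was counted as a reversal only where the main or the alternative result passed.

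Leaving out scaling factors moved the median of all log2 fold changes by 0.156, and leaving out last exons by 0.147. The replicate numbers do not pair the libraries: deviations of same-numbered libraries correlated at 0.105, -0.0522, 0.1 and 0.0617, and under the block no Nlrp gene or exon call changed, while Nod2 passed (0.63, edgeR adjusted p = 0.0498). Depth limits the exons with fewest counts, such as exon 11 of Nlrp2.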
